A study of Homo sapiens with 10 samples.

Results

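Tall FAIRE peaks without a histone mark are stretches of open chromatin in MDAMB231 cells at which none of the 3 marks mapped in the same cells was called. They were chosen by 2 measured values, the height of the FAIRE peak and its overlap with histone peaks. A FAIRE peak counted as tall when its height was at or above the list median of 61.1, and as unmarked when it shared no base with any peak of H3K4me1, H3K4me3 or H3K27Ac. On chromosomes 1 to 22, 1906 of 22953 tall peaks met this rule, which is 8.3% and is fixed by the rule itself. The whole FAIRE list held 46552 peaks, 44702 of them on these chromosomes.

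MDAMB231 is a triple-negative human breast cancer line of mesenchymal form, obtained from ATCC and grown in DMEM with 5% FBS. The series held 10 samples, with 2 each for FAIRE, H3K4me1, H3K4me3 and H3K27Ac and 1 input sample each for FAIRE and ChIP. The authors analysed the 2 samples of an assay separately, then combined them, and the paper names peak statistics for replicates in its supplement. The lists used here hold the combined samples of an assay, so no error between samples can be given from them. The 95% Wilson intervals below cover counting error only. Peaks lie beside each other on chromosomes and are not independent replicates. The lists held 26771 H3K4me1, 18019 H3K4me3 and 37495 H3K27Ac peaks. At the promoters of VIM, CD44, AXL, EGFR, CAV1 and ZEB1, genes of basal or mesenchymal cells, an H3K4me3 and an H3K27Ac peak lay within 1 kb of the start in 6 of 6 cases, H3K4me1 in 4 and FAIRE in 3 (VIM, CD44 and CAV1). Of 6 luminal or epithelial genes, ESR1 and CDH1 had neither FAIRE nor any mark at the start. PGR, FOXA1 and GATA3 had H3K4me3 there, GATA3 also H3K27Ac, and ERBB2 had all 3 marks and FAIRE.

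FAIRE recovers DNA that formaldehyde does not crosslink to nucleosomes, so a tall peak marks a place where nucleosomes are sparse or easily lost. Active promoters usually carry H3K4me3, enhancers H3K4me1, and active forms of both H3K27Ac. Open DNA that lacks these marks is known from insulators, where the zinc finger protein CTCF binds a long and well conserved sequence, holds chromatin loops together with cohesin and can keep enhancers from acting across it. AP-1, a dimer of FOS and JUN proteins, is a leading factor of open chromatin in basal-like breast cancer lines. Its binding pattern, with an open middle letter, is the same on both strands.

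The 5 tallest unmarked peaks that hold the CTCF consensus show what such a peak looks like. Each stretch has 120 bases of hg19 (GRCh37), plus strand, centred on the match, with the 12 letters of the match in capitals.
PDE4DIP intron, chr1:145059095-145059214: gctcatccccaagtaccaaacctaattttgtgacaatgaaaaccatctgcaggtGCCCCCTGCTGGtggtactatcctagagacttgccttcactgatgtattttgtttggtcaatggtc
XCR1 intron, chr3:46120419-46120538: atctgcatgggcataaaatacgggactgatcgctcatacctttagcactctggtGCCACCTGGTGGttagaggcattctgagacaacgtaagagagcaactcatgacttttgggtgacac
intergenic near EIF4B, chr12:53374723-53374842: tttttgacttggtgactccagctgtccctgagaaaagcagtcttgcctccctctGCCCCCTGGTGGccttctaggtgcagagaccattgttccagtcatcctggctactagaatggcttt
LINC01612 start, chr4:171180910-171181029: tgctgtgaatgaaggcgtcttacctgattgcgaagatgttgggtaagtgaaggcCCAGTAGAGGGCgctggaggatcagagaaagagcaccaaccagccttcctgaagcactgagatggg
intergenic near KRT83, chr12:52721412-52721531: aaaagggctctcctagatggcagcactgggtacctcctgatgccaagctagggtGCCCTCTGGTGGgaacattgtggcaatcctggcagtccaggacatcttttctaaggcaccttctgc
Their peaks were 147.5, 147.0, 130.8, 114.8 and 108.7 high, in that order. In 4 of these 5 sequences the consensus lies on the minus strand, so that the capitals show its reverse complement, and in the sequence at LINC01612 it lies on the plus strand. PDE4DIP encodes a protein of the centrosome and Golgi, XCR1 a chemokine receptor, and LINC01612 a long non-coding RNA. The LINC01612 peak had its centre 29 bp from the annotated start of that RNA and lay 9824 bp from the nearest mark. The other 2 lay between genes, 25245 bp from the start of the translation factor gene EIF4B and 6310 bp from that of the hair keratin gene KRT83.

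The 3 tallest unmarked peaks without the consensus whose sequence can be shown held 0 or 1 match to the AP-1 letters TGANTCA. The capitals mark those letters, again on the plus strand of hg19. Where the central window holds no match, the 120 bases are those about the peak centre, without capitals.
intergenic near NCOA3, chr20:46093425-46093544: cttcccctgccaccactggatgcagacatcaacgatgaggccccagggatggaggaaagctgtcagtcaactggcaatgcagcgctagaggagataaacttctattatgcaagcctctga
intergenic near STX16, chr20:57220727-57220846: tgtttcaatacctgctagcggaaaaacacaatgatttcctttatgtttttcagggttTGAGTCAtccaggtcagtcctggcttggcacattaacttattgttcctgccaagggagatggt
intergenic near NAT16, chr7:100825602-100825721: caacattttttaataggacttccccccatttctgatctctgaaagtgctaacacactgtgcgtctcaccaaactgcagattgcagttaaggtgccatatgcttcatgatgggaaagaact
The first belongs to the tallest of all unmarked peaks, with a height of 194.5. It lay between genes, 37146 bp from the start of NCOA3, a coactivator of steroid receptors, and 9290 bp from the nearest mark. The peak beside STX16, which encodes a SNARE protein of the Golgi, was 168.8 high and was 5573 bp from that gene's start. The peak near NAT16, a gene of the N-acetyltransferase family, was 166.1 high. None of the 3 held a CTCF match with 1 mismatch allowed.

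Heights of the unmarked tall peaks ran from 61.1 to 194.5 with a median of 71.4, and marked tall peaks had a median of 84.9. The lowest member stood at 61.102 and the highest unmarked peak below the median at 61.086, so the threshold divides near-equal values. Of the members, 872 (45.8%) were under 70, 491 (25.8%) between 70 and 80, and 61 (3.20%) reached 120. With the whole list parted by height into 10 classes, the share of FAIRE peaks without a mark fell step by step from 43.1% in the lowest class (95% Wilson interval 41.6% to 44.7%) to 20.3% just below the median, 16.1% just above it and 1.95% (1.59% to 2.39%) in the highest. The taller a FAIRE peak, the more often it met a mark, and the members are the part of the tall peaks that did not.

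**Figure D1:**
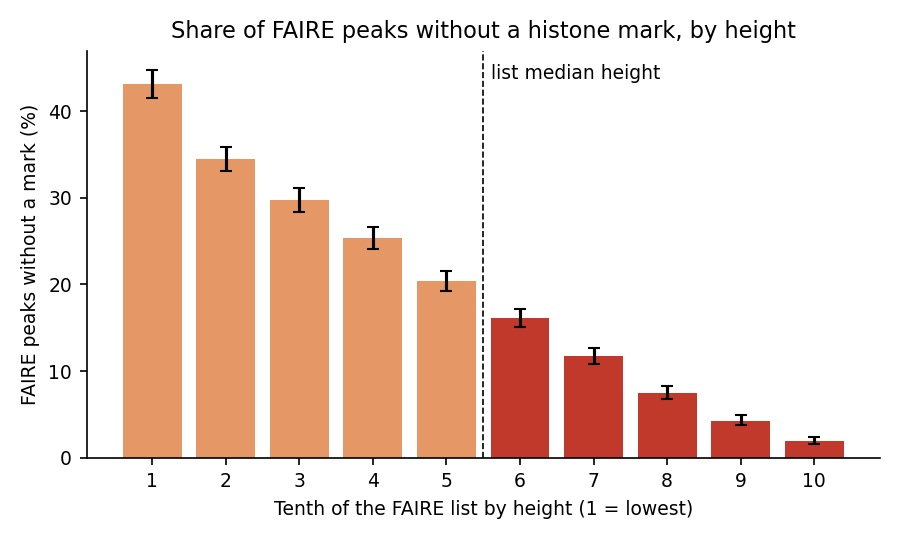
Percent of FAIRE peaks on chromosomes 1 to 22 that shared no base with a histone peak, for 10 classes of the list by height, with 95% Wilson intervals as bars. The share falls from 43.1% in the lowest class to 1.95% in the highest, and the classes to the right of the dashed line hold the members.

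Width did not set the members far apart. Their median width was 933 bp, with quartiles of 762 and 1125 bp, beside 991 bp for marked tall peaks and 847 bp for unmarked peaks below the median height. A narrower peak has fewer bases with which to meet a mark, and the part of this in the selection was not tested. Few peaks were decided by a small overlap, since 20515 of the 21047 marked tall peaks lay in marks with every base and 2 shared 50 bases or fewer.

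Most members lay well away from the marks. The nearest mark was at a median of 12260 bp, with quartiles of 4879 and 29385 bp, a least distance of 24 bp and a greatest of 872385 bp. Only 23 members (1.21%) were within 500 bp of a mark and 73 (3.83%) within 1 kb, while 722 lay 5 to 20 kb away, 597 lay 20 to 100 kb away and 95 (4.98%) beyond 100 kb. H3K4me1 was the nearest mark for 894 members, H3K27Ac for 610 and H3K4me3 for 402. The median distances were 17208 bp to H3K27Ac, 26376 bp to H3K4me1 and 38662 bp to H3K4me3. Unmarked peaks below the median height were somewhat farther out, at a median of 16037 bp from any mark.

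The 10 tallest members were spread over 5 chromosomes, and 5 of them lay on chromosome 20. Besides the peaks near NCOA3 and STX16, these were the peak at chr20:52683757-52684628, with a height of 162.7 at the end of a transcript in BCAS1, a gene named for its amplification in breast carcinoma, 2.94 kb from the gene's 5' end, the peak at chr20:56347438-56348225 (155.9), whose nearest coding start was that of PMEPA1, a membrane protein gene induced by TGF-beta, and the peak at chr20:49377648-49378880 (152.5), 30062 bp from the start of the cell polarity gene PARD6B. The BCAS1 peak was the most isolated of these 5, at 52586 bp from a mark. The peak at chr1:154403602-154404999 lay in an intron of IL6R, a cytokine receptor gene, with a height of 153.0. Another on the same chromosome, at chr1:182925013-182925997, was 156.7 high and 222 bp from the start of a long non-coding RNA beside SHCBP1L. The second tallest member, 176.8 high, was on chromosome 8, 41495 bp from the nearest start of PTK2, the gene of focal adhesion kinase. Of these 10 peaks, 6 had the AP-1 letters in their central 300 bases and 0 the CTCF consensus, also with 1 mismatch allowed, where 39.2% of all FAIRE peaks had the AP-1 letters, 2.36% the exact consensus and 8.68% the consensus with up to 1 mismatch. Counts of 10 peaks do not set the tallest apart from these shares.

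The 2 members farthest from any mark touch each other on the short arm of chromosome 21. They span chr21:9825208-9825885 and chr21:9825886-9826569, with heights of 141.9 and 161.8, and the second is also among the 10 tallest. They lie over the microRNA genes MIR3648 and MIR3687, 872385 and 871701 bp from the nearest mark. Their central windows had a GC content of 76.4% and 82.7%, the second being the highest among all members, whose median was 45.3%. Next in distance was a peak of height 70.9 at chr3:163657569-163658690, between genes and 419427 bp from any mark. Whether repeated sequence in the genome plays a part in the pair on chromosome 21 was not tested.

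By the annotation at the peak centre, members lay in introns about as often as other FAIRE peaks, in promoters less often and between genes more often. Of the members, 904 (47.4%) were in introns, where 48.0% of all FAIRE peaks were, 697 (36.6%, 95% Wilson interval 34.4% to 38.8%) were intergenic, where 25.9% of all FAIRE peaks were, and 119 (6.24%, 5.24% to 7.42%) were in promoters, where 18.4% of all FAIRE peaks were. Exons held 88 members (4.62%, against 3.25% of all FAIRE peaks) and the ends of transcripts 98 (5.14%, against 4.38%). Promoters here run from 1 kb upstream to 100 bp downstream of any annotated start. Marked tall peaks were in promoters in 21.4% of cases and intergenic in 24.4%. Since H3K4me3 lies at promoters, leaving out marked peaks also leaves out promoters, and these shares describe the rule as much as the peaks. Unmarked peaks of lower height had a like pattern, with 5.39% in promoters and 33.8% between genes. A coding start was within 10 kb of 36.2% of the members and within 100 kb of 85.4%, against 42.7% and 83.8% for marked tall peaks.

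Promoters of protein-coding genes held 54 members, 1.43% of the 3779 tall peaks there. Of these 54, 42 lay at a start inside the gene, more than 1 kb from the gene's 5' end, and 25 of those 42 belonged to genes with an H3K4me3 peak at the 5' end. Of the marked tall peaks in coding promoters, 1115 lay at such an inner start, 805 of them in genes with H3K4me3 at the 5' end. Among marked tall peaks in coding promoters, 70.1% lay within 1 kb of the gene's 5' end, against 22.2% of the members. The tallest of the members was at an inner start of the semaphorin receptor gene PLXNA4 (chr7:131829843-131830763), 137.4 high and 503.1 kb from the gene's 5' end, which had no H3K4me3. CLMP, a gene of a tight junction adhesion protein, held a peak of 130.7 at chr11:122953950-122955104, 111.4 kb inside the gene. In FANK1 the peak at chr10:127661647-127662363 was 99.9 high and lay 76.9 kb inside. The 5' ends of CLMP and FANK1 did carry H3K4me3. CD70, which encodes a ligand of the TNF family, was the exception among the 5 tallest, with a peak of 107.9 at chr19:6603711-6604562 whose centre was 23 bp from the 5' end, and no H3K4me3 peak within 1 kb of it. The nearest H3K4me3 peak was 6480 bp away.

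Sequence at these starts differed from that of other tall promoter peaks. The kind of start differed too, as 22.2% of the members and 70.1% of the marked peaks lay within 1 kb of the gene's 5' end. The values below were not split by kind of start, and its part in them was not tested. The members had a median GC content of 47.8% and a median ratio of observed to expected CpG of 0.227, against 55.3% and 0.701 for marked tall peaks in coding promoters. The AP-1 letters were in the central window of 20 of 54 members (37.04%), near the 39.2% of all FAIRE peaks, and of 15.7% of those marked promoter peaks.

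A few genes held several members in their body. SLC2A1, the gene of the glucose transporter GLUT1, held 4, and these were all of its 4 tall peaks. They lay between chr1:43406066 and chr1:43416645, with heights of 111.8, 91.8, 128.4 and 70.8, and the first 2 touch each other. The third is at an inner start, 15.7 kb from the gene's 5' end, where an H3K4me3 peak was called. SH3PXD2B, which encodes a scaffold of invadopodia, held 4 of 6, up to a height of 115.1. ANKRD55 held 3 of 5 and EYA2, a transcriptional coactivator gene on chromosome 20, 3 of 9. Over the whole set, 797 coding genes held a member and 90 of them held 2 or more.

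The sequence of the members was then searched for fixed motifs in the central 300 bases of each peak, on both strands. For CTCF a consensus of 12 letters was used, 4 of them open to either of 2 bases. It was found in 138 of 1906 members (7.24%, 95% Wilson interval 6.16% to 8.49%), while 2.36% of all FAIRE peaks on chromosomes 1 to 22 had it. Of the marked tall peaks, 156 of 21047 (0.741%, 0.634% to 0.866%) had it, a share 9.77 times smaller. In 8948302 tiles of 300 bases over the genome the share was 0.112%. With 1 mismatch allowed, the shares were 20.04% of members, 4.404% of marked tall peaks and 1.55% of tiles. Letters of the sequence were not used by the rule, but no test of this difference was made, since the peaks are not independent and the members were chosen with earlier results of these data known.

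The same contrast was seen on most chromosomes and in each class of place and height compared. The exact consensus was more frequent in members than in marked tall peaks on 19 of 22 chromosomes, less frequent on 2 and absent from both on 1, and with 1 mismatch allowed it was more frequent on 22 of 22. Among introns the shares were 6.53% and 0.611%, between genes 7.46% and 0.837%, and in promoters 7.56% and 0.777%. In the third quartile of height they were 7.53% and 0.982%, and in the highest quartile 6.29% and 0.524%. Seen from the motif, 138 of 294 tall peaks with the consensus (46.9%, 41.3% to 52.6%) had no mark, against 7.80% of tall peaks without it. The consensus was not particular to tall peaks, as 573 of 6553 unmarked peaks of lower height (8.74%, 8.08% to 9.45%) held it.

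**Figure D2:**
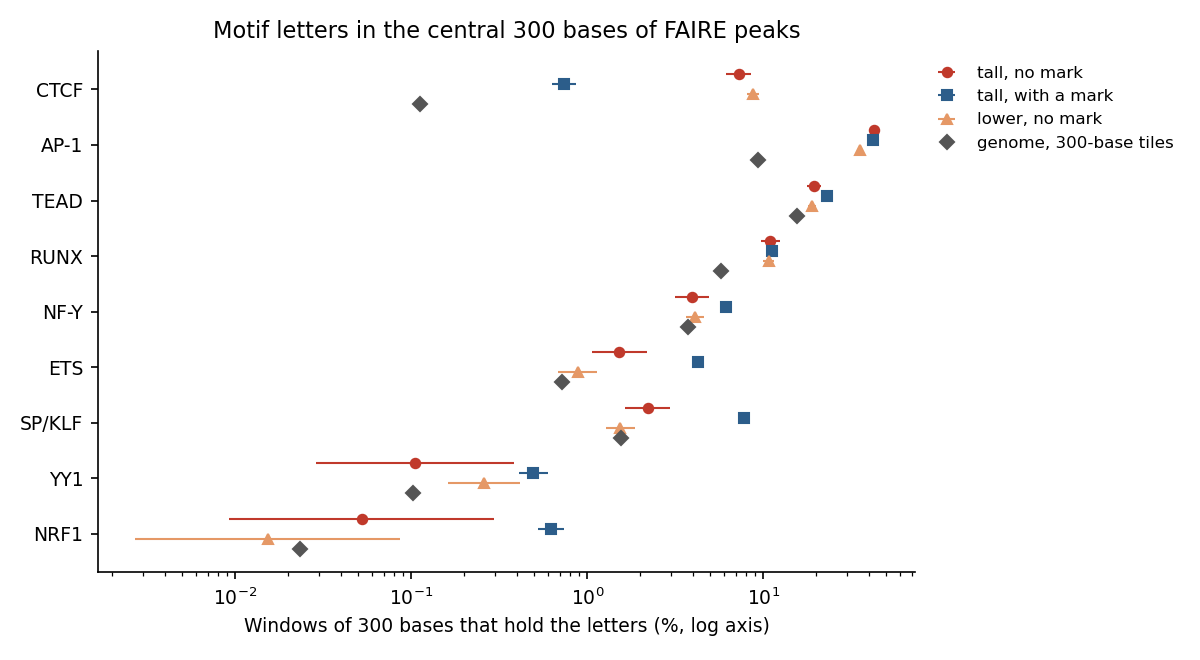
Percent of 300-base windows that hold each set of motif letters, on a log axis, for tall peaks without a mark, tall peaks with a mark, lower peaks without a mark, and tiles of the genome; bars are 95% Wilson intervals. CTCF stands at 7.24% in the members and 0.741% in marked tall peaks, AP-1 at 42.5% and 42.1%, and ETS, SP/KLF, YY1 and NRF1 letters are rarer in the members.

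The CTCF matches gathered near the middle of the peak. Of 192 CTCF matches within 500 bp of the centre of a member, 104 (54.2%) were within 100 bp and 19 beyond 250 bp, and the median distance was 95.5 bp. Unmarked peaks of lower height had them closer still, at a median of 78 bp. The consensus was on the plus strand in 83 cases and on the minus strand in 109. Narrow members had the consensus more often than wide ones, with 11.99% of those in the lowest quartile of width (up to 728 bp) and 3.15% in the highest (over 1147 bp). This was not particular to the members. The shares in the same quartiles were 11.8% and 4.87% in unmarked peaks of lower height. They were 1.32% and 0.308% in marked tall peaks, and 1.71% and 0.472% in marked peaks of lower height.

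**Figure D3:**
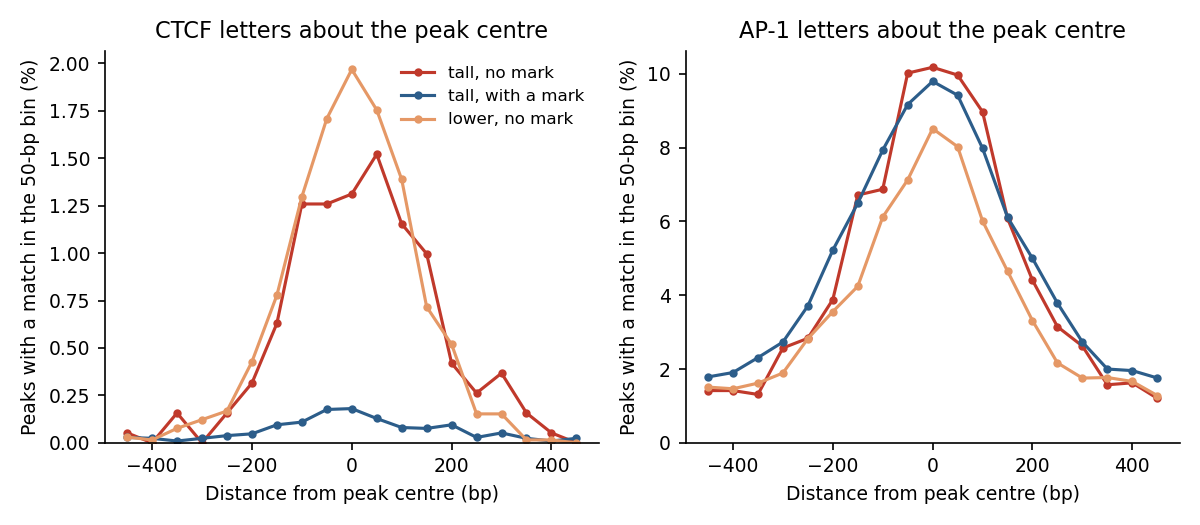
Percent of peaks with a match whose middle falls in each 50-bp bin, by distance from the peak centre, for CTCF on the left and AP-1 on the right. Both gather at the centre in peaks with and without a mark, and CTCF is far rarer in marked tall peaks, of which 0.741% have it in the central 300 bases.

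AP-1 letters were common among the members, but over the whole class no more so than in marked tall peaks. TGANTCA was found in 811 members (42.5%, 95% Wilson interval 40.3% to 44.8%), where 39.2% of all FAIRE peaks had it. Marked tall peaks had it in 42.1% of cases (41.4% to 42.8%), genome tiles in 9.32%. The share was higher in members on 13 of 22 chromosomes and lower on 9, and the intervals of both whole classes overlap. By place the order differed. In promoters 32.8% of members (24.99% to 41.6%) and 19.7% of marked tall peaks (18.6% to 20.9%) had the letters. Between genes the shares were 41.03% (37.4% to 44.7%) and 49.1% (47.7% to 50.5%). In introns (44.8% and 47.98%), exons (43.2% and 45.8%) and ends of transcripts (43.9% and 47.7%) members were lower too, with overlapping intervals. At 2 or more places in the window the letters were found in 188 members (9.86%). The same share was not computed for other FAIRE peaks, so this count cannot be called high or low. Of the members, 119 had only the CTCF consensus, 792 only the AP-1 letters, 19 both and 976 (51.2%) neither. Whether the 19 differ in number from what the separate shares would give was not tested. In 0 members did matches of both share a base.

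Farther from the marks, the AP-1 letters were more frequent among the members and the CTCF consensus less so, though for the exact consensus the intervals of the nearest and farthest class overlap. The CTCF consensus was found in 10 of 73 members within 1 kb of a mark (13.7%, 95% Wilson interval 7.61% to 23.4%), 9.55% at 1 to 5 kb, 6.79% at 5 to 20 kb, 6.03% at 20 to 100 kb and 3 of 95 (3.16%, 1.08% to 8.88%) beyond 100 kb. With 1 mismatch allowed, the shares in the nearest and farthest class were 35.6% (25.6% to 47.1%) and 9.47% (5.06% to 17.03%). The AP-1 letters rose over the same classes from 26.0% (17.3% to 37.1%) to 36.5%, 42.7%, 46.6% and 55.8% (45.8% to 65.4%). Unmarked peaks of lower height varied less. Their CTCF share lay between 7.32% and 11.02%. Their AP-1 share rose in the same order as in the members, from 28.8% (23.4% to 34.9%) to 33.3%, 34.4%, 36.1% and 43.5% (39.1% to 48.0%). The median distance to a mark was 14754 bp for members with only AP-1 letters, 10093 bp (95% interval 7603 to 13451 bp) for those with only the CTCF consensus and 10810 bp for those with neither. For the 19 members with both it was 4832 bp (1268 to 17833 bp). Width was about even over the classes, at medians of 931 to 954 bp, and so was height, at 68.8 to 72.9.

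**Figure D4:**
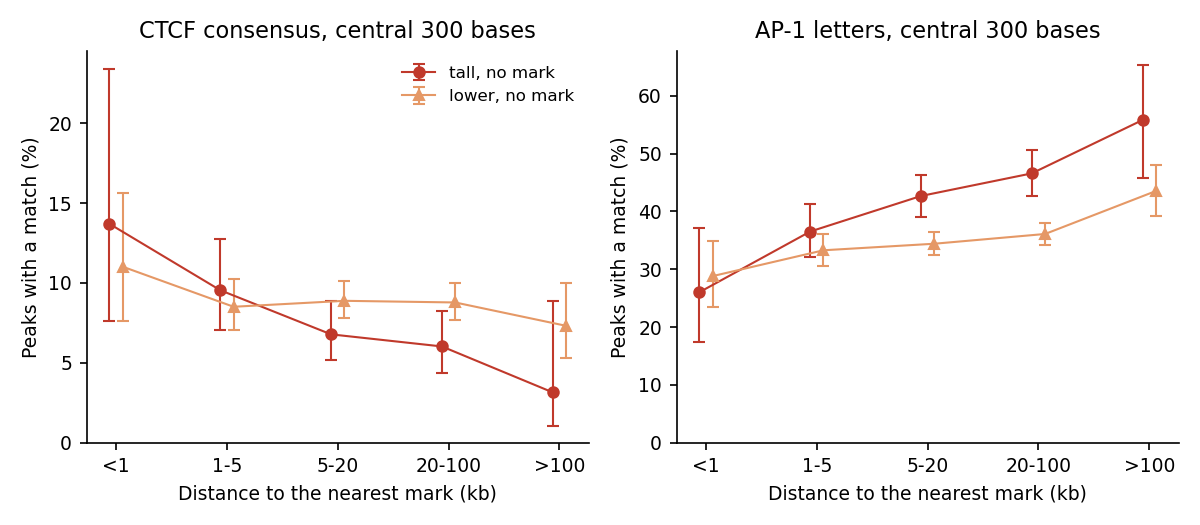
Percent of unmarked FAIRE peaks with the CTCF consensus (left) or the AP-1 letters (right) in the central 300 bases, by distance to the nearest mark in kb, for tall peaks and lower peaks; bars are 95% Wilson intervals. In tall peaks CTCF falls from 13.7% to 3.16% and AP-1 rises from 26.0% to 55.8% with distance. In lower peaks AP-1 rises from 28.8% to 43.5%.

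Letters of factors that work at promoters were rarer in the members. The ETS letters CCGGAAG were in 1.52% of members and 4.27% of marked tall peaks, and the SP/KLF letters GGGCGGG in 2.20% and 7.75%. NRF1 (GCGCATGCG) was found in 1 member and in 0.622% of marked tall peaks, YY1 (AAGATGGCG) in 2 members and in 0.494%, and NF-Y (AGCCAAT) in 3.93% and 6.13%. ZNF143 (ACTACAATT) was in 1 member (0.0525%, 95% Wilson interval 0.00926% to 0.297%) and in 0.385% of marked tall peaks (0.310% to 0.478%). ETS and SP/KLF were each lower in members on 21 of 22 chromosomes. The genome tiles held the ETS letters in 0.718%, SP/KLF in 1.56%, NRF1 in 0.0232%, YY1 in 0.102%, NF-Y in 3.73% and ZNF143 in 0.298% of cases. The YY1 letters share AGATGGC with a form of the CTCF consensus. Members also held fewer promoters, and the part of this in the shares was not tested.

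TEAD letters (GGAATG), those of the factors that act with YAP, were somewhat rarer in members, at 19.5% (95% Wilson interval 17.7% to 21.3%) and 22.97% of marked tall peaks (22.4% to 23.5%), and at 15.5% of tiles. Other letters were found at like rates in both classes. RUNX (TGTGGTT) stood at 10.97% and 11.2%, E-box (CACGTG) at 5.04% and 5.00%, C/EBP (TTGCNNAA) at 17.8% and 16.9%, NF-kB (GGGNNTTCC) at 4.51% and 4.81% and FOX (TGTTTAC) at 4.98% and 5.84%. For the p53 family (ACATGTC) the shares were 3.41% (2.68% to 4.32%) and 2.64% (2.43% to 2.86%). Rare letters, each in 10 members or fewer, were REST (TTCAGCACC), in 0.210% of members and 0.299% of marked tall peaks, RFX (GTTGCCATG), in 0.525% and 0.390%, CREB (TGACGTCA), in 0.525% and 0.798%, and the tRNA B box (GGTTCGANT), in 0.157% and 0.185%, with intervals that overlap in each case. Tiles held RUNX in 5.72%, E-box in 2.76%, C/EBP in 15.8%, NF-kB in 2.72%, FOX in 4.66%, p53 in 2.78%, REST in 0.291%, RFX in 0.243%, CREB in 0.107% and the B box in 0.0871% of cases. Matches of different motifs may share bases and were counted apart. The STAT letters TTCNNNGAA, in 10.9% of members and 10.8% of marked tall peaks, were near their rate of 10.03% in tiles. The same held for the GATA letters AGATAAG, at 4.30%, 4.24% and 4.35%.

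A count of all words of 8 letters, added after the data had been seen, needed no motif list. The word with the greatest excess in members over marked tall peaks was AGGTGGCA, in 5.30% against 1.85%. AGATGGCA (4.35% and 1.60%) and CCACTAGA (3.52% and 1.012%) were among the first 8 by excess, and these 3 overlap the letters of the CTCF consensus. ATGACTCA, a form of the AP-1 letters with a flanking base, was also among the first 8, at 15.1% against 12.3%. The AP-1 letters themselves stood at 42.5% of all members and 42.1% of all marked tall peaks, with an order that differed by place. Words that match none of the listed motifs were in excess too, such as CAGGCTGG (8.29% and 5.72%), AGCCTGGG (7.45% and 5.04%) and AAAGTGCT (5.19% and 3.38%). At the other end, CCCCGCCC was in 0.997% of members and 4.69% of marked tall peaks. Each word was counted together with its reverse complement.

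Base composition as a whole differed little from that of marked tall peaks. The median GC content of the central 300 bases was 45.3% in members (quartiles 41.3% and 50%) and 45% in marked tall peaks, while unmarked peaks of lower height had 40.7% and the genome tiles 41.0% on average. The median ratio of observed to expected CpG was 0.214 in members and 0.228 in marked tall peaks.

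Members were found on each of the 22 chromosomes, but chromosome 20 stood apart. There, 126 of 822 tall peaks had no mark (15.3%, 95% Wilson interval 13.0% to 17.95%), against 5.15% on chromosome 2 at the low end and 11.1% on chromosome 14, next to the top. Chromosome 20 gave 6.61% of the members and 3.31% of the marked tall peaks. The median height of its FAIRE peaks, 77.1, was also the highest of any chromosome, and that of chromosome 18, 37.4, the lowest. A chromosome with higher FAIRE peaks throughout places more of them over the list median, with 72.5% of peaks tall on chromosome 20 and 17.0% on chromosome 18. The number of copies of each chromosome in the cells was not measured here, and its part in these heights was not tested. Chromosome 17 had a median height of 74.7 and 8.41% of its tall peaks without a mark, which is close to the share over all chromosomes. Over all FAIRE peaks, tall or not, 20.3% had no mark on chromosome 20. This was below chromosomes 18 (31.7%), 16 (24.2%), 13 (24.0%), 21 (23.6%) and 2 (23.1%), whose median heights were lower, from 37.4 to 49.5. The chromosomes nearest to it in median height, at 67.1 to 74.7, had lower shares. These were 13.9% on chromosome 17, 13.5% on 19, 15.3% on 10, 14.4% on 12, 16.5% on 1 and 18.8% on 14. On chromosome 20 the CTCF consensus was in 6.35% of members, and the AP-1 letters were in 31.0% of members and 40.1% of marked tall peaks.

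**Figure D5:**
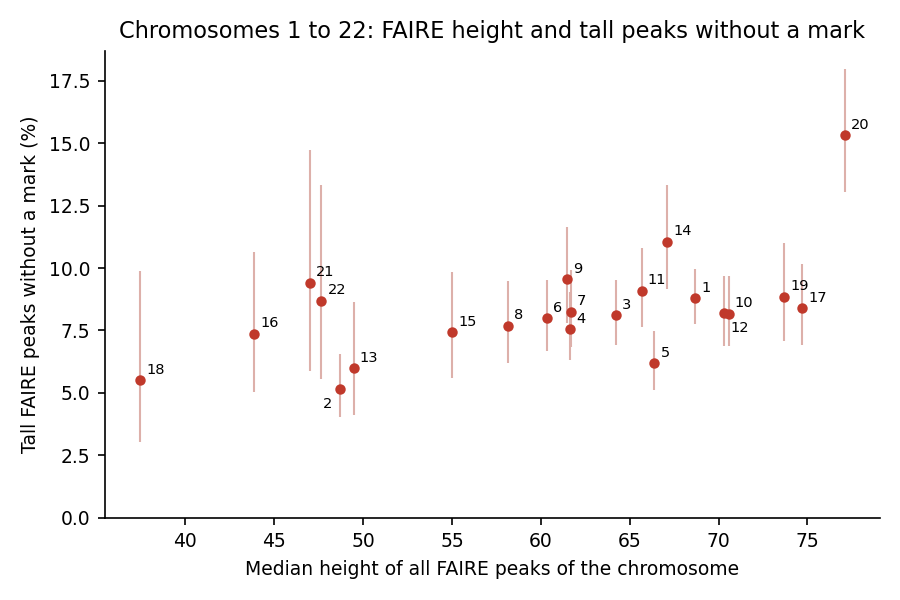
Percent of tall FAIRE peaks without a mark on each of the chromosomes 1 to 22 (numbers beside the points) against the median height of all FAIRE peaks of that chromosome; bars are 95% Wilson intervals. Chromosome 20 has the highest median height, 77.1, and the highest share, 15.3%.

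Within chromosomes the share of tall peaks without a mark varied between bins. Bins hold few members, and the part of counting error in this was not tested. Over 254 bins of 10 Mb with at least 20 tall peaks, the median share without a mark was 7.45%, with quartiles of 5.08% and 10.1%, and 13 bins had no member. The long arm of chromosome 20 had 48 of 218 tall peaks without a mark from 40 to 50 Mb (22.02%) and 30 of 125 from 50 to 60 Mb (24.0%). Chromosome 14 had similar shares, with 22 of 94 from 90 to 100 Mb (23.4%) and 16 of 65 from 100 to 110 Mb (24.6%). The highest share, 26.9%, was that of 7 peaks out of 26 on chromosome 10 between 40 and 50 Mb. Neighbouring members were a median of 272.3 kb apart, and 80 of them (4.20%) had another within 10 kb. The nearest other FAIRE peak had a mark for 1358 members (71.2%) and for 88.2% of the marked tall peaks, and its median distance was 15605 bp for members and 4803 bp for marked tall peaks. Only 17 members (0.892%) touched another FAIRE peak, while 18.9% of the marked tall peaks did. Unmarked peaks of lower height were like the members in these values. Of them, 0.580% touched another FAIRE peak and the nearest had a mark for 69.8%, at a median distance of 19098 bp.

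Known loci were looked up in the gene body with 10 kb on each side. Among 14 mesenchymal and basal genes, including VIM, CD44, AXL, MET and PLAU, 0 of 79 tall peaks were members (95% Wilson interval 0% to 4.64%), where 8.3% of all tall peaks were; the genes were chosen with earlier results of these data known. Luminal genes, also 14, had 17 tall peaks and 2 members. The first was 69.7 high at chr16:68775434-68776401 in CDH1, the gene of E-cadherin, 4.72 kb from the gene's 5' end and 32586 bp from any mark, with the AP-1 letters at 2 places. It was labelled a promoter from a small RNA gene 465 bp away. The other, 67.8 high, was 11.03 kb from the 5' end of ELF3, an epithelial ETS factor gene, at chr1:201987528-201988677. Imprinted loci, beta-globin, HOX clusters and clustered protocadherins, known for CTCF sites, had 12 tall peaks in 104 genes. The member among these was 75.9 high at chr14:101213196-101214274, 21.7 kb from the 5' end of the imprinted gene DLK1, without the CTCF consensus. In the protocadherin clusters 0 of 6 tall peaks were members, and in the HOX clusters 0 of 2. In the lists other than that of mesenchymal and basal genes, the counts are too small for a share to be compared with the 8.3% of all tall peaks. The 79 tall peaks of the mesenchymal and basal list come from a list of 14 genes and are not independent. Their share was not tested against the 8.3% either.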

How the data were processed

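The data were the deposited peak lists of MDAMB231 cells, 1 each for FAIRE, H3K4me1, H3K4me3 and H3K27Ac. Per the methods of the study, BWA aligned the reads to GRCh37 (hg19), duplicate reads and those with low mapping quality were dropped, FindPeaks called the FAIRE peaks, and MACS at its defaults called the histone peaks against input; the submitters' processing notes also name TopHat and HOMER. A FAIRE value is the peak's height in signal or coverage, taken as the authors deposited it, with no scaling stated. For histone peaks the authors deposited the MACS score, a −log10 scale: minus 10 times log10 of the p-value. Each list came from combined samples, and depth is not given in the files.

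Peaks were compared with numpy 2.4.6 and pandas 2.3.3 by shared bases, at least 1, and the distances were checked against bedtools 2.31.1 on simulated intervals. Distances count from 1 for peaks that touch. Genes and transcripts were those of GENCODE 44 on GRCh37, at the peak centre, with promoters taking precedence over transcript ends, exons, introns and intergenic sequence. Ends of transcripts ran from 100 bp upstream to 1 kb downstream. Motifs were counted in the central 300 bases of the genome sequence, and intervals were computed with scipy 1.17.1. No chance test was run, because members were selected on the measured values and the lists hold no replicates.

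The members, motifs and gene lists were chosen with earlier results of these data known. Named members are the 10 tallest, the 3 farthest from a mark, the 5 tallest with the CTCF consensus and the 3 tallest without it for printed sequences, the 5 tallest in promoters of coding genes, and 4 of the 5 genes with most members, with ties in order of name; no sequence of chromosome 8 was printed. Alternatives were MACS peaks of p at or under 1e-10, marks widened by 500 bp or 1 kb, the peak centre in place of any base, the upper quartile of height, windows of 200 and 500 bases and the whole peak, 1 mismatch to the consensus, promoters of 2 kb on each side and coding transcripts alone. Heights relative to the median of each chromosome, leaving out chromosome 20, and the count of 8-letter words were added after seeing the data.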

Additional observations from a re-analysis of the deposited data

How the results depend on the processing

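No paired analysis was possible because the samples of every assay were combined into 1 list, which also excludes leaving out single samples. Of 87 values recomputed under alternatives, 58 stayed within the counting interval of the value given (for the number of members, within 1.5 times) and 29 did not.

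With MACS peaks of p at or under 1e-10 as marks, the rule gave 3247 members, 14.1% of tall peaks, at a median of 15237 bp from a mark and 952 bp wide, 5.20% of them with the CTCF consensus and 47.0% with the AP-1 letters. Fewer marks leave more peaks unmarked by construction. At or above the upper quartile of height there were 445 members, 3.87% of such peaks, 987 bp wide, with a median GC content of 46.7% and the AP-1 letters in 47.2%, while marked peaks of that height had the consensus in 0.524%. For a window of 200 bases the consensus was in 4.88% of members and 0.551% of marked tall peaks, for 500 bases in 8.97% and 1.02%, for the whole peak in 10.02% and 1.20%, and with 1 mismatch in 20.04% and 4.404%. AP-1 letters were in 33.4% of members in 200 bases, 54.5% in 500 and 62.8% in the whole peak, and the GC content in 200 bases was 46%. A longer window holds more matches by construction. Promoters of 2 kb on each side held 16.3% of members, against 6.24% with the narrower window, and 28.4% of all FAIRE peaks. With coding transcripts alone, promoters held 2.83% of members and 14.8% of all FAIRE peaks, and intergenic sequence 53.1% and 41.4%.

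Of the alternatives added after seeing the data, heights relative to the median of each chromosome gave a median distance of 13369 bp and AP-1 letters in 45.3% of members; the cause was not tested. The share with the consensus was 4.55 to 12.004 times that of marked tall peaks over 11 alternatives. Without chromosome 20 it was 7.30% against 0.747%. Depth is not in the files, so a weak mark below the authors' threshold cannot be told from no mark.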

Other observations

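Chromosome X is outside the rule. Its 1834 FAIRE peaks had a median height of 37.8, and 323 of them (17.6%) reached the list median. Of these, 26 had no mark (8.05%, 95% Wilson interval 5.55% to 11.5%). The CTCF consensus was in the central window of 6 of the 26 (23.1%, 11.03% to 42.1%) and of 0 of 297 marked tall peaks, and the AP-1 letters were in 11 of the 26. Among its 625 unmarked peaks of lower height, 42 (6.72%) held the consensus.

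PDE4DIP on chromosome 1, chosen here after its values were seen, held 3 members among 9 tall peaks, all of them high, from 108.2 to 147.5, where the median member stood at 71.4.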
